A study of Mus musculus with 8 samples.

Results

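The comparison is between brown adipose tissue (brown fat) of C57BL/6J mice placed at 4 °C for 4 h and that of mice of the same strain housed at room temperature. It uses 4 of the 8 bead arrays in the study, 2 at 4 °C and 2 at room temperature, chosen by their labels. The other 4 arrays hold quadriceps muscle under the same conditions, and the series title concerns the zinc finger factor Zbtb16 in the energy metabolism of brown adipocytes. The cold-exposed mice ate freely overnight and then went without food and bedding in the cold. The sources used here do not say whether the mice at room temperature were also without food and bedding, so cold and food withdrawal cannot be told apart. No transgene, deletion or drug is named for either group, both ate the same chow, and the depot, age and sex of the mice are not given. Nothing in the labels states that replicates are separate mice. The p-values therefore measure the spread between arrays, which may be technical in part. That spread is pooled over all 8 arrays, muscle included. A gene whose muscle replicates disagree can thus have a wide error even where its brown fat replicates are close.

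Probes were tested where they were above background on both arrays of at least 1 of the 4 groups, which 11946 of 24607 probes were. With the brightest probe standing for each gene, these gave 9963 genes, of which 8561 have a symbol. Levels are log2 intensities after background correction and quantile normalization, and a fold change is the 4 °C mean over the room temperature mean (n = 2 arrays each). A gene is called past the threshold where its Benjamini-Hochberg adjusted p from limma, over all 9963 genes, was under 0.05. Levels of different genes come from different probes and are not compared with each other.

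Brown adipocytes are packed with mitochondria in which the uncoupling protein Ucp1 lets protons return without making ATP, so that fuel is burned as heat. In the cold, sympathetic nerves release noradrenaline onto these cells, adrenergic receptors raise cyclic AMP, and protein kinase A switches on lipolysis and the transcription of genes such as Ppargc1a and Dio2. Acute cold and fasting are also known to raise circulating glucocorticoids and to lower insulin, both of which act on adipose gene expression.

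Defining markers of the tissue were present on every brown fat array. Ucp1 read 14.68 and 14.41 at 4 °C, against 14.45 and 14.47 at room temperature, and was above background on each array. Between 10468 and 10486 probes were above background on the 4 °C arrays, against 11186 to 11280 on the room temperature arrays. Among tested genes, 65 were detected on both 4 °C arrays and on neither room temperature array, and 350 the other way round. Replicates correlated across genes at 0.977 for 4 °C and 0.993 for room temperature.

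Skeletal muscle transcripts separated the replicates at 4 °C. The 28 tested genes of a muscle list had a summed raw signal of 3149 on 4 °C replicate 1 and 117800 on 4 °C replicate 2, against 98450 and 101300 on the room temperature arrays. Of these 28 genes, 13 were detected on 4 °C replicate 1 and 27 on each of the other brown fat arrays. The fast muscle calcium pump Atp2a1 read 6.47 and 13.77 at 4 °C, against 13.78 and 13.96 at room temperature. The muscle actin Acta1 read 6.54 and 14.17 at 4 °C, against 13.84 and 14.24 at room temperature. Muscle transcripts were thus near the floor on 4 °C replicate 1 and bright on the other 3 arrays. No gene of the muscle list passed the threshold or had an unadjusted p under 0.05, and its median log2 fold change was -2.12 with all arrays and 0.28 without 4 °C replicate 1. Without 4 °C replicate 2, 24 of the 28 were called lower. Of 1564 genes over 2-fold brighter in muscle than in brown fat at room temperature, 45.1% had their lowest brown fat value on that array, against 23.9% of the other 8399 genes. Without those genes, the replicates at 4 °C correlated at 0.990 and those at room temperature at 0.994. In whole tissue, fewer cells of a type and less RNA per cell cannot be told apart.

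**Figure D1:**
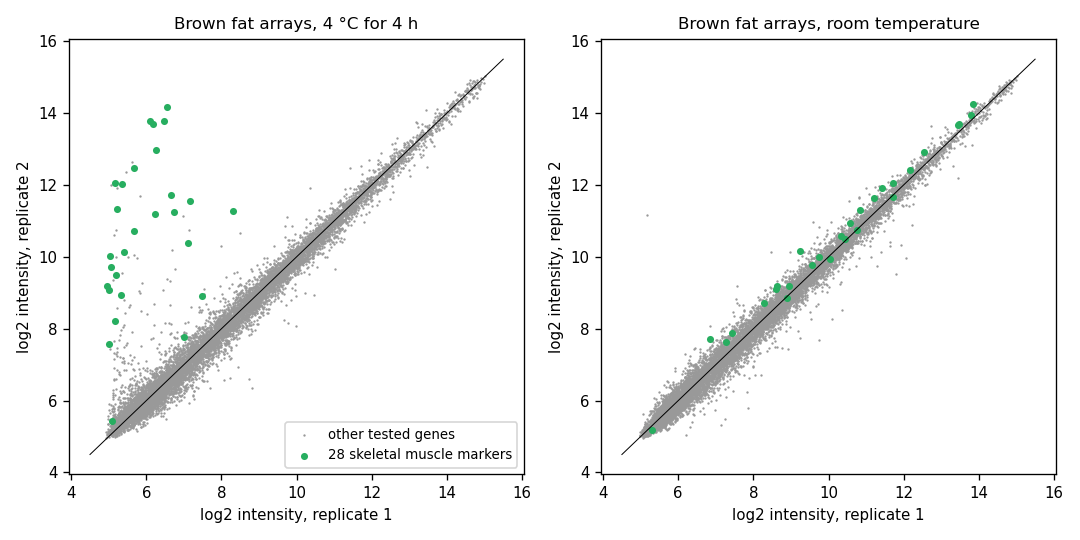
Replicate 2 against replicate 1 in log2 intensity, for brown fat at 4 °C (left) and at room temperature (right), each point being 1 of 9963 tested genes, with 28 skeletal muscle markers in green and a line at equality. The muscle markers lie far above the line at 4 °C, where replicate 1 is near the floor, and along the line at room temperature.

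At 4 °C, 823 genes were higher and 823 lower than at room temperature, or 8.26% of the tested genes in each direction and 16.5% in all. The median log2 fold change was 0.69 among the higher genes and -0.76 among the lower genes, against 0.02 over all genes, and the median SE was 0.139. Of the called genes, 180 rose and 223 fell by over 2-fold, and 29 rose and 28 fell by over 4-fold. The split depended on scaling. With medians equalised in place of quantile normalization, 58 genes were higher and 194 lower, so that higher genes made up 23% of calls in place of 50%, and the median of all genes moved to -0.11. The calls that also held without each of the 4 brown fat arrays in turn were 198 higher and 214 lower genes, or 1.99% and 2.15% of those tested. Leaving out an array also removes 1 of the 4 residual degrees of freedom. Without 4 °C replicate 1, 348 were higher (3.49%) and 419 lower (4.21%). Both 4 °C values lay above both room temperature values in 31.4% of all genes and below them in 28.2%, so a lack of overlap alone was common with 2 arrays per group.

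**Figure D2:**
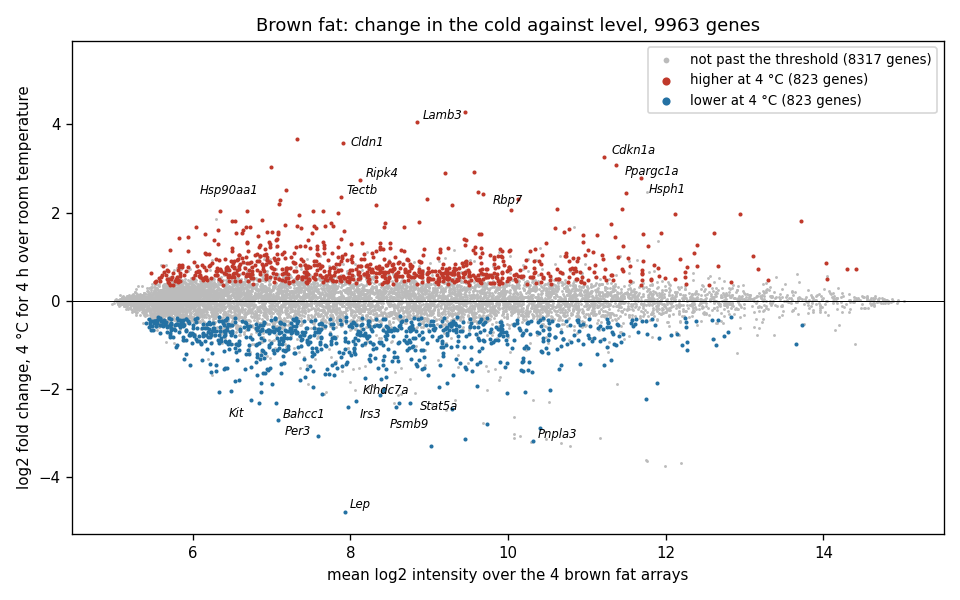
Log2 fold change, 4 °C over room temperature, against the mean log2 intensity of the 4 brown fat arrays for 9963 genes. Red points are the 823 higher genes, blue points the 823 lower genes and grey points the 8317 others, and labels mark the 9 largest rises and 9 largest falls that held without each brown fat array.

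Among the thermogenic genes, Ppargc1a and Dio2 rose, and Ucp1 did not pass the threshold. The list of 25 had 18 tested members, of which 2 rose and none fell, against the background of 8.26% in each direction, and its median was -0.01. Ppargc1a, the coactivator that turns on mitochondrial and thermogenic genes, read 12.93 and 12.89 at 4 °C, against 9.49 and 10.17 at room temperature. Both 4 °C arrays were well above both room temperature arrays, an 8.47-fold rise (log2 3.08, SE 0.26, adjusted p = 0.00143). Dio2, the deiodinase that makes active thyroid hormone inside the cell, read 11.30 and 10.76 at 4 °C, against 8.33 and 7.88 at room temperature, with no overlap (log2 2.93, SE 0.61, adjusted p = 0.0202). A dimmer Dio2 probe also rose, by 1.03. The error of Dio2, like that of every gene, pools the muscle arrays. Dio2 lost its call without room temperature replicate 1 (adjusted p = 0.0752), room temperature replicate 2 (0.104) or 4 °C replicate 1 (0.0906).

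Ucp1 itself differed by 0.09 in log2 (SE 1.41, adjusted p = 0.977). That error pools the muscle arrays, where Ucp1 read 9.15 and 14.45 on the 2 cold muscle arrays. With the brown fat arrays fitted alone, Ucp1 still did not pass (adjusted p = 0.708), and its groups overlapped. In that fit of 9181 genes, 5.49% were higher and 5.96% lower, and 3 thermogenic genes rose and 1 fell. The additional ones, named after their values were seen, were the potassium channel gene Kcnk3 and the proton channel gene Otop1. Kcnk3 read 12.19 and 12.02 at 4 °C, against 11.23 and 11.11 at room temperature (adjusted p = 0.018 with brown fat alone). Otop1 read 10.68 and 10.73 at 4 °C, against 11.32 and 11.20 at room temperature (adjusted p = 0.0487). Perm1, a muscle and brown fat regulator of mitochondrial genes, was among the 15 largest stable rises. It read 12.55 and 12.42 at 4 °C, against 10.51 and 10.31 at room temperature, a 4.22-fold rise. Perm1 was high on both 4 °C arrays, including the array nearly free of muscle transcripts. At room temperature it was 1.90 brighter in log2 in muscle than in brown fat. The part of muscle transcripts in its values was not tested.

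Of 23 tested genes of the cyclic AMP and immediate early response, 12 were higher, 1 was lower and 10 did not pass, against 8.26% of all tested genes in each direction. The median log2 fold change was 0.70. Of these, 7 higher and 1 lower held without each brown fat array. Pde4d, a phosphodiesterase that degrades cyclic AMP, read 11.47 and 11.10 at 4 °C, against 8.75 and 9.19 at room temperature, a 4.95-fold rise. A second Pde4d probe rose by 0.84. The stress-induced factor Atf3 read 8.66 and 8.34 at 4 °C, against 5.74 and 5.21 at room temperature (log2 3.02, SE 0.58, adjusted p = 0.0162), and the groups did not overlap. On room temperature replicate 2 Atf3 was below the lowest detected level of that array, 5.59, so the size of its rise is not exact. Its adjusted p was 0.0568 without room temperature replicate 1, 0.0978 without room temperature replicate 2 and 0.0721 without 4 °C replicate 1. The small Maf factor Maff rose by 1.70 (SE 0.15, adjusted p = 0.00179). Sik1, Klf4 and Fosl2, chosen after their values were seen, rose by 1.21, 1.19 and 1.19, and are transcription or kinase regulators induced by cyclic AMP or growth factors. Without room temperature replicate 2 the list had 7 higher and 1 lower, and with medians equalised 5 higher and 3 lower.

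Other immediate early genes of the same list were lower or did not pass. Ier3, an early response gene, fell, reading 9.17 and 9.23 at 4 °C, against 10.35 and 10.83 at room temperature (log2 -1.39, adjusted p = 0.00398). Fos, a subunit of the factor AP-1 named after its values were seen, read 6.37 and 6.83 at 4 °C, against 9.75 and 7.69 at room temperature, and did not pass (log2 -2.12, adjusted p = 0.133). Its room temperature arrays differed from each other by more than the 4 °C arrays did. The early growth response factor Egr1, likewise named after its values were seen, read 9.98 and 8.08 at 4 °C, against 11.41 and 10.12 at room temperature, and did not pass (adjusted p = 0.107).

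Phosphatases and growth arrest genes act as brakes on kinase signalling and on the cell cycle. Of 19 tested members, 9 were higher and 2 lower, against 8.26% of all tested genes in each direction. The median was 0.65. Cdkn1a, the cyclin-dependent kinase inhibitor p21, read 12.74 and 12.95 at 4 °C, against 9.76 and 9.40 at room temperature. All 4 °C values exceeded all room temperature values, a 9.59-fold rise (log2 3.26, SE 0.31, adjusted p = 0.00216), and a second probe rose by 3.58 (adjusted p = 0.0023). The kinase Plk3 read 10.25 and 11.05 at 4 °C, against 8.02 and 7.46 at room temperature (log2 2.90, SE 0.60, adjusted p = 0.0196). The phosphatases Dusp8 and Dusp16, which inactivate stress-activated kinases, rose by 1.69 and 1.39, and the stress sensor Gadd45g rose by 1.24. Cyclin D2 (Ccnd2) fell by 1.44 (adjusted p = 0.0209). Plk3 lost its call without either room temperature array or 4 °C replicate 2 (adjusted p from 0.0653 to 0.112), Gadd45g without room temperature replicate 2 or either 4 °C array (0.0538 to 0.109), and Ccnd2 without room temperature replicate 1 or either 4 °C array (0.0555 to 0.1). With medians equalised, 3 members were higher and 1 lower, and without room temperature replicate 2 the counts were 5 and 1.

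The promoters of Dusp8 and of Ppp1r15a, a phosphatase subunit described with the stress genes below, are shown because both genes rose in every leave-out and both hold the full cyclic AMP response element TGACGTCA. This palindrome is the textbook binding sequence of the factor Creb, a target of protein kinase A. The sequences are from RefSeq on GRCm38.p6, 5′ to 3′ on the strand of the gene, with matches in capitals and positions counted from the start site at 1 with no position 0.
Dusp8: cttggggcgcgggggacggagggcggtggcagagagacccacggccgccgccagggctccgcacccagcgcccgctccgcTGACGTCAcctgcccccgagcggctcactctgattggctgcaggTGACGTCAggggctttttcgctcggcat
Ppp1r15a: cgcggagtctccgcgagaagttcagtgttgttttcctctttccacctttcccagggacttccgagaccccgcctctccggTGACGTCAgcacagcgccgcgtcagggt
The Dusp8 stretch lies at chr7:142095320-142095471, minus strand, with matches starting at -107 and -63. The Ppp1r15a stretch lies at chr7:45526253-45526360, minus strand, with its match starting at -12. In windows of 300 bases, 250 before the start site and 50 from it on, the motif was found in 11 of 144 (7.64%) genes that rose in every leave-out and in 2 of 144 (1.39%) that fell in every leave-out. It was found in 3.53% of all tested genes with a window and in 2.03% of all genes in the promoter table. The 2 that fell were Cdkn2b and Pnpla3, the latter among the largest falls below. In the list of phosphatases and growth arrest genes the motif was found in 3 of 15 with a window and in 1 of 7 that rose. In the cyclic AMP list the counts were 2 of 19 and 2 of 10. In the list of stress responses below they were 1 of 16 and 1 of 3. These matches describe letters in a window and do not show binding.

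Most heat shock genes tested rose. Of 18 tested members, 12 were higher, none lower and 6 did not pass, against 8.26% of all tested genes in each direction. The median log2 fold change was 1.18, against 0.02 over all genes. Hsph1, a large heat shock chaperone, read 13.30 and 12.85 at 4 °C, against 9.74 and 10.84 at room temperature, a 6.89-fold rise (log2 2.78, SE 0.34, adjusted p = 0.00398). The inducible cytosolic chaperone Hsp90aa1 read 8.76 and 8.10 at 4 °C, against 5.98 and 5.88 at room temperature (log2 2.50, SE 0.20, adjusted p = 0.00138). Both genes were separated on all 4 arrays. The small heat shock protein gene Hspb1 rose by 1.96, the Hsp70-Hsp90 linker Stip1 by 1.74, the Hsp90 cochaperone Chordc1 by 1.54 and the Hsp90 activator Ahsa1 by 1.49. Of the 12 rises, 7 held without each brown fat array in turn, and the count ran from 7 without room temperature replicate 2 to 12. With medians equalised, 6 passed. The factor Hsf2, named after its values were seen, read 5.22 and 5.45 at 4 °C, against 5.43 and 5.25 at room temperature. These values lay below the lowest detected levels of the arrays, 5.46 and 5.71 at 4 °C and 5.58 and 5.59 at room temperature. Hsf2 was thus not above background in brown fat, and a change in it could not be read.

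The heat shock element, taken as GAA, TTC and GAA with 2 free bases between neighbours and searched on both strands, was found in the promoter window of 2 of 11 heat shock genes that rose (18.2%), against 0.602% of all tested genes. Over all tested heat shock genes with a window it was found in 3 of 17 (17.6%), among them Hspd1, which did not pass, so the share describes the list and not the rise. The windows of Hsph1 and Chordc1 are printed since both genes were among the stable rises.
Hsph1: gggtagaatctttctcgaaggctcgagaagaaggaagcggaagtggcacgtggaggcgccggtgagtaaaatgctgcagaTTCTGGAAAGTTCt
Chordc1: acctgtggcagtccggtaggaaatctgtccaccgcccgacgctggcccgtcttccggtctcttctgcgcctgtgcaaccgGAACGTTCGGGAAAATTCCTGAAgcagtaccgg
The Hsph1 stretch lies at chr5:149636287-149636380, minus strand, the second of 2 RefSeq windows for this gene, with its match starting at 16. The Chordc1 stretch lies at chr9:18292183-18292295, plus strand and holds 3 overlapping matches, starting at -4, 2 and 7, which run together in the capitals. No binding was measured.

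Genes of the unfolded protein and integrated stress responses moved in both directions, with 4 higher and 3 lower of 17 tested members. That stands against 8.26% of all tested genes in each direction, and the median was 0.30. Ppp1r15a, which restarts translation after stress, read 8.54 and 8.76 at 4 °C, against 7.24 and 7.48 at room temperature (log2 1.29, adjusted p = 0.00235). Atf4, the transcription factor of the integrated stress response, rose by 1.13, and the chaperone Hyou1 of the endoplasmic reticulum rose by 0.92. Xbp1, the factor whose spliced form drives the unfolded protein response, was lower, at 10.35 and 10.62 at 4 °C, against 12.10 and 11.81 at room temperature (log2 -1.47, SE 0.15, adjusted p = 0.00244). Its 4 values did not overlap. Herpud1, which helps degrade misfolded proteins, fell by 0.75. Spliced and unspliced Xbp1 are not separated by these probes. With medians equalised, 1 member was lower and none higher, and without room temperature replicate 1 the counts were 2 higher and 1 lower. Without room temperature replicate 2 or 4 °C replicate 1, 1 member was lower.

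Of 21 tested antioxidant genes, 5 rose and none fell, against 8.26% of all tested genes in each direction, while the median was -0.03. Haem oxygenase 1 (Hmox1), which degrades haem, had the largest change, at 9.70 and 10.56 at 4 °C, against 7.77 and 7.86 at room temperature (log2 2.31, SE 0.51, adjusted p = 0.0238). The metal-binding gene Mt2 rose by 1.11, the sulfiredoxin gene Srxn1 by 0.74, the autophagy receptor gene Sqstm1 by 0.73 and thioredoxin reductase 1 (Txnrd1) by 0.46. Of these, Mt2 held without each brown fat array, and Hmox1 lost its call without either room temperature array or 4 °C replicate 2 (adjusted p from 0.0896 to 0.103). The count was 1 without room temperature replicate 1, 2 without room temperature replicate 2 or 4 °C replicate 1, 3 without 4 °C replicate 2 or either room temperature muscle array, and 1 with medians equalised.

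Targets of glucocorticoids and fasting had 10 higher and none lower of 20 tested members, against 8.26% of all tested genes in each direction. The median was 0.46. Zbtb16, a zinc finger transcriptional regulator, is a member of this list and of the list of brown fat identity factors. It read 8.34 and 8.14 at 4 °C, against 6.21 and 5.71 at room temperature. The rise was 4.85-fold (log2 2.28, SE 0.18, adjusted p = 0.0013) and held in all alternatives that tested it. Its raw signal was 316.8 and 358.3 at 4 °C, against 150.3 and 106.9 at room temperature, and the lowest detected level on room temperature replicate 2 was 5.59, so the room temperature level rests on dim signal. In muscle Zbtb16 read 8.79 and 8.67 in the cold, against 6.71 and 6.57 at room temperature, and the effects of cold in brown fat and muscle differed by 0.19 (SE 0.25, adjusted p = 0.682).

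The cochaperone Fkbp5, a standard marker of glucocorticoid receptor activity, read 8.42 and 8.61 at 4 °C, against 7.19 and 6.48 at room temperature (log2 1.69, SE 0.28, adjusted p = 0.0098). Depp1, a target of the fasting factor FoxO, read 12.90 and 12.54 at 4 °C, against 9.58 and 10.96 at room temperature (log2 2.45, SE 0.41, adjusted p = 0.0102). Both genes were separated, with a wide spread between the room temperature arrays. Ddit4, an inhibitor of the growth kinase mTOR, and Tsc22d3, the glucocorticoid-induced leucine zipper, rose by 0.89 and 0.83. Depp1 had an adjusted p of 0.0517 without 4 °C replicate 1. Of the 10 rises, 4 held without each brown fat array. The count was 4 without 4 °C replicate 1, 6 and 5 without room temperature replicates 1 and 2, and 3 with medians equalised. Of 15 tested ubiquitin ligase, FoxO and autophagy genes, 5 rose and none fell (median 0.32), against 8.26% of all genes in each direction. The 5 were Ddit4, Gabarapl1, Sqstm1, Atg12 and Foxo1, none of which held in every leave-out. The count was 1 or 2 with any 1 brown fat array left out and 3 without either room temperature muscle array. With medians equalised none was higher and 1 lower.

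**Figure D3:**
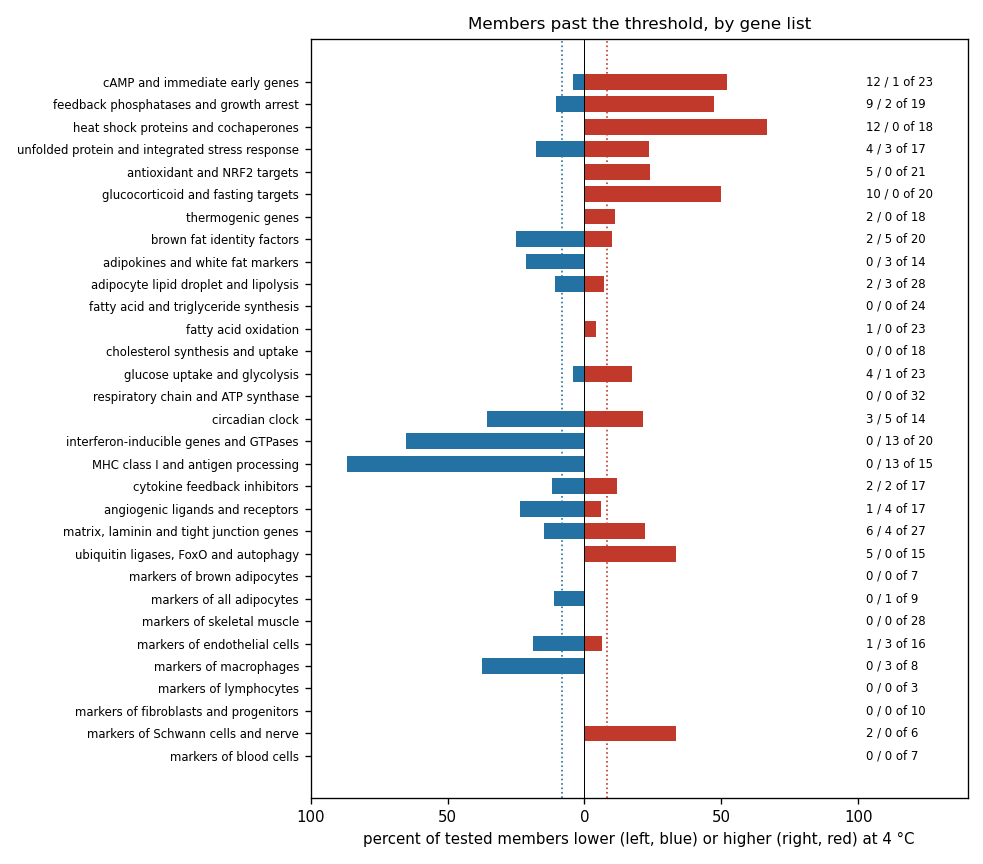
Percent of tested members past the threshold, lower at 4 °C to the left in blue and higher to the right in red, for 22 functional lists and 9 lists of cell type markers. Dotted lines mark the 8.26% of all tested genes called in each direction, and the text at the right gives higher and lower counts of those tested.

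Transcription factors of brown fat identity had 2 higher and 5 lower of 20 tested members. The higher share was near the 8.26% of all tested genes called in each direction, and the median was 0.06. Cebpa, a factor of mature adipocytes, read 7.94 and 8.17 at 4 °C, against 10.06 and 10.96 at room temperature (log2 -2.46, SE 0.51, adjusted p = 0.0205). Ebf2, which marks and maintains brown adipocytes, read 8.70 and 8.70 at 4 °C, against 9.89 and 10.51 at room temperature (log2 -1.50, adjusted p = 0.00835). Neither gene's groups overlapped. The related Ebf3 fell by 1.46 and the thyroid hormone receptor gene Thra by 0.92. Besides Zbtb16, the orphan receptor gene Esrrb rose by 1.76 (adjusted p = 0.0276), but lost its call with any 1 of the brown fat arrays left out (0.0572 to 0.143). Cebpa lost its call without room temperature replicate 2 or either 4 °C array (0.0545 to 0.113). With any 1 of these 3 arrays left out the list had 3 lower members. Pparg, the master factor of adipocytes and named after its values were seen, differed by 0.07 (adjusted p = 0.97).

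Leptin had the largest fall. Lep, the satiety hormone of fat, read 5.47 and 5.61 at 4 °C, against 10.49 and 10.16 at room temperature (log2 -4.79, SE 0.30, adjusted p = 0.00115). Lep was not above background on either 4 °C array, so its fall is given as a bound, at least 26.6-fold lower at 4 °C. Such a bound divides the room temperature mean (or that of whichever group was brighter) by a floor, taken on each dim array as the lowest detected signal or the gene's own, whichever was higher. The adipokine and white fat list had no higher and 3 lower of 14 tested members, with a median of -0.21. That stands against 8.26% of all tested genes called in each direction. Of the 14, 9 were above background on both arrays of a brown fat group, and the median of those 9 was -1.13. Nnat and the resistin-like gene Retnla fell by 1.53 and 1.35. Without 4 °C replicate 1, Lep alone of the list passed. With the brown fat arrays alone 4 fell, and with medians equalised or without either cold muscle array 5.

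Among 28 tested genes of the lipid droplet and lipolysis, 2 rose and 3 fell, shares near the 8.26% of all genes called in each direction, and the median was close to 0. Pnpla3, a lipid droplet enzyme regulated by feeding, read 8.47 and 8.97 at 4 °C, against 12.01 and 11.80 at room temperature, 9.11-fold lower (log2 -3.19, SE 0.35, adjusted p = 0.00285). Hcar1, the lactate receptor that restrains lipolysis, read 6.12 and 6.00 at 4 °C, against 8.79 and 9.46 at room temperature (log2 -3.06, SE 0.50, adjusted p = 0.00993). In both genes every 4 °C value was below every room temperature value. The fatty acid transporter gene Slc27a1 fell by 0.94. The lipolysis inhibitor Hilpda rose by 0.96 and Gpihbp1, which carries lipoprotein lipase to capillaries, by 0.48. Hcar1 lost its call without room temperature replicate 2 (adjusted p = 0.0612). Without 1 brown fat array the list had 0 or 1 higher and 1 or 2 lower members, against 1 higher and 5 lower with brown fat alone.

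The large metabolic lists gave few calls. On brightest probes no gene of 24 in fatty acid and triglyceride synthesis or of 18 in cholesterol synthesis and uptake passed in limma. Nor did any of 32 in the respiratory chain and ATP synthase. At an unadjusted p under 0.05, 1 was higher and 3 lower in the first list, 4 higher and 1 lower in the second, and 1 higher and none lower in the third. Their medians were -0.04, -0.05 and 0.05. Dimmer probes of Sqle and Insig1 in the second list were higher, by 0.77 and 0.73 (limma adjusted p over all probes = 0.0114 and 0.0304). The brightest Insig1 probe differed by -0.41 and a further one by -0.34, and neither passed. The triglyceride-forming enzyme gene Dgat2 came nearest in the first list, at 14.06 and 13.77 at 4 °C, against 14.90 and 14.88 at room temperature (log2 -0.98, adjusted p = 0.0637), and passed with the brown fat arrays alone (adjusted p = 0.0184). In the second list Pmvk and Sqle, enzymes of the mevalonate and squalene steps, had log2 differences of 0.90 and 0.81 and adjusted p-values of 0.0676 and 0.0665. With brown fat alone they passed (adjusted p = 0.0172 and 0.037), and 2 genes of that list were higher without 4 °C replicate 1. Atp5g1 had the widest difference of the third list (-0.83, adjusted p = 0.397). It read 8.50 on 4 °C replicate 1 and 10.66 on 4 °C replicate 2, against 10.16 and 10.66 at room temperature. Thus 4 °C replicate 1, the array with few muscle transcripts, alone was low. The part of muscle transcripts in that value was not tested.

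Pdk4, the kinase that shuts glucose carbon out of mitochondria, read 14.66 and 14.67 at 4 °C, against 13.90 and 13.99 at room temperature (log2 0.72, adjusted p = 0.0262). It was the only called gene of 23 in fatty acid oxidation, against 8.26% of all tested genes in each direction. The median of that list was -0.05. Of 23 tested genes of glucose uptake and glycolysis, 4 rose and 1 fell, against 8.26% of all tested genes in each direction. The median was 0.05. The glucose transporter gene Slc2a1 rose by 1.01, hexokinase 2 (Hk2) by 0.50 and phosphoglycerate kinase 1 (Pgk1) by 0.48, and glycogen synthase 1 (Gys1) fell by 0.58. None of these 5 calls, Pdk4 included, held without 4 °C replicate 1, without room temperature replicate 2 or with medians equalised. Pdk4 lost its call with any 1 of the 4 brown fat arrays left out (adjusted p from 0.0659 to 0.106).

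Circadian clock genes had 3 higher and 5 lower of 14 tested members, against 8.26% of all tested genes in each direction. The median was -0.07. Per3, a period gene of the clock, read 5.79 and 5.66 at 4 °C, against 8.23 and 8.63 at room temperature (log2 -2.71, SE 0.14, adjusted p = 0.00096). Dbp, a transcription factor that binds the D-box, read 10.71 and 10.54 at 4 °C, against 12.66 and 13.06 at room temperature (log2 -2.23, SE 0.15, adjusted p = 0.00122). Both were low on each 4 °C array. Per3 was above background on only 1 of these, so the size of its fall is not exact. The related factor Tef fell by 0.71 on its brightest probe, though its other probes did not pass (-0.13 and 0.28), and the repressor Cry2 fell by 0.67. The activator Arntl read 7.25 and 6.52 at 4 °C, against 5.26 and 5.15 at room temperature. It was not above background at room temperature, and was at least 2.46-fold higher at 4 °C (adjusted p = 0.0133, and 0.0532 to 0.0814 without either room temperature array or 4 °C replicate 1). Per1, which responds to cyclic AMP and glucocorticoids, rose by 0.79. The list had 1 higher and 3 lower members without room temperature replicate 2, 1 higher and 4 lower without 4 °C replicate 1, and 1 higher and 2 lower with medians equalised. The labels give no hour of tissue collection for either group, so time of day and cold cannot be told apart.
The Per3 promoter is shown for its pair of D-box letters TTATGTAA, in capitals.
Per3: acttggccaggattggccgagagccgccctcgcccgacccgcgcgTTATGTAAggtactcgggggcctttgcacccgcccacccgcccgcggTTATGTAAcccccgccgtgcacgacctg
The stretch lies at chr4:151044796-151044915, minus strand, with matches starting at -205 and -158. The D-box letters were found in 3 of 144 (2.08%) genes that fell in every leave-out, in none of 144 that rose in every leave-out and in 0.717% of all tested genes.

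Interferon-inducible genes and genes of MHC class I antigen presentation gave the highest counts of falls of the 31 lists. In the interferon list 13 of 20 tested members fell and none rose, against 8.26% of all genes, and the median log2 fold change was -1.50. Igtp and Irgm2, immunity-related GTPases that act on the vacuoles of intracellular parasites, had the largest falls of the list. Igtp read 7.74 and 7.01 at 4 °C, against 11.79 and 9.53 at room temperature (log2 -3.29, SE 0.65, adjusted p = 0.0172). Irgm2 read 8.26 and 7.50 at 4 °C, against 12.06 and 9.97 at room temperature (log2 -3.13, SE 0.60, adjusted p = 0.0161). In both, room temperature replicate 1 was far above room temperature replicate 2, and both lay above the 4 °C arrays. The immune checkpoint ligand Cd274 fell by 2.89. The guanylate-binding protein gene Gbp3 fell by 2.80, Irgm1 by 2.41 and Gbp7 by 2.14 in log2. Probes of these near-identical families may share transcripts, so values of single members are uncertain.

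None of the 13 interferon calls held without each brown fat array in turn. With trend and robust moderation the count was 5, with no filter on dim probes 8, and 9 with brown fat alone, cyclic loess or the authors' processed table. It was 4 without room temperature replicate 1, 12 without room temperature replicate 2, 8 without 4 °C replicate 1, 2 without 4 °C replicate 2 and 8 without either muscle array at room temperature. Igtp and Irgm2 missed the threshold without 4 °C replicate 2 (adjusted p = 0.0601 and 0.0566). The list's median stayed below 0 in each of the alternatives, from -2.09 to -1.19. Of the 20 members, 17 had both 4 °C values below both room temperature values, against 28.2% of all genes. The spread between the room temperature arrays was wide in this list, whose median level was 7.62 and 6.98 at 4 °C, against 9.81 and 8.27 at room temperature.

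In the MHC class I list 13 of 15 tested members fell and none rose, against 8.26% of all tested genes in each direction. The median was -0.98. All 15 had both 4 °C values below both room temperature values, against 28.2% of all genes. The immunoproteasome subunit Psmb9 read 7.64 and 7.11 at 4 °C, against 10.32 and 9.24 at room temperature, 5.29-fold lower (adjusted p = 0.00822). Its partner Psmb8 fell by 1.65, and the peptide transporter subunits Tap1 and Tap2 fell by 2.07 and 1.58. Tap1 was not above background at 4 °C, and was at least 3.45-fold lower. Tap2 read 9.43 and 9.32 at 4 °C, against 11.08 and 10.82 at room temperature, with replicates close on both sides. The class I genes H2-T23 and H2-Q6 fell by 1.41 and 1.26. Of the 13 falls, 5 held without each brown fat array, and the count was 5 without room temperature replicate 1 and 8 without 4 °C replicate 2. With medians equalised the count was 7. Tap1 lost its call without room temperature replicate 1 (adjusted p = 0.0523) or 4 °C replicate 1 (0.0807).

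The interferon-stimulated response element was taken as GAAA repeated after 2 free bases, searched on both strands, and found in the promoter windows of 8 of 13 (61.5%) fallen interferon genes and 4 of 11 (36.4%) fallen MHC class I genes, against 3.54% of all tested genes and 3.99% of all genes in the promoter table. Over all tested members with a window it was found in 11 of 20 (55%) and 4 of 12 (33.3%). Among all tested genes with a window that fell in every leave-out, on a list or not, it was found in 5 of 144 (3.47%). The interferon list was drawn up from genes known to respond to interferon, so these shares describe the lists and not the fall. The promoters of 4 GTPase genes are shown as examples.
Igtp: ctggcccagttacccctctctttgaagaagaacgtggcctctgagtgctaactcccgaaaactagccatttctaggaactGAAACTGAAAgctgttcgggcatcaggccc
Irgm2: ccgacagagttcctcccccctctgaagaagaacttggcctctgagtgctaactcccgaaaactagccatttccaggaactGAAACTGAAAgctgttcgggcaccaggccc
Irgm1: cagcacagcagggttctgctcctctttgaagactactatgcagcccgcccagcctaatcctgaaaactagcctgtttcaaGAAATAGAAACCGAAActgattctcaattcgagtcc
Gbp3: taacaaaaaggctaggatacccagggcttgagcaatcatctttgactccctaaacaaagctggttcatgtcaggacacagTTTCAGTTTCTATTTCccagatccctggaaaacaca
They lie at chr11:58199442-58199551, plus strand (Igtp), chr11:58214833-58214942, plus strand (Irgm2), chr11:48871415-48871530, minus strand (Irgm1) and chr3:142559919-142560034, plus strand (Gbp3, the first of 2 windows). Capitals mark matches, which start at -34 in Igtp and -64 in Irgm2. Irgm1 holds a pair of overlapping matches from -30, and Gbp3 a pair from -45 on the opposite strand. The printed Igtp and Irgm2 stretches share 98 of 110 bases (89.1%) position by position.

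**Figure D4:**
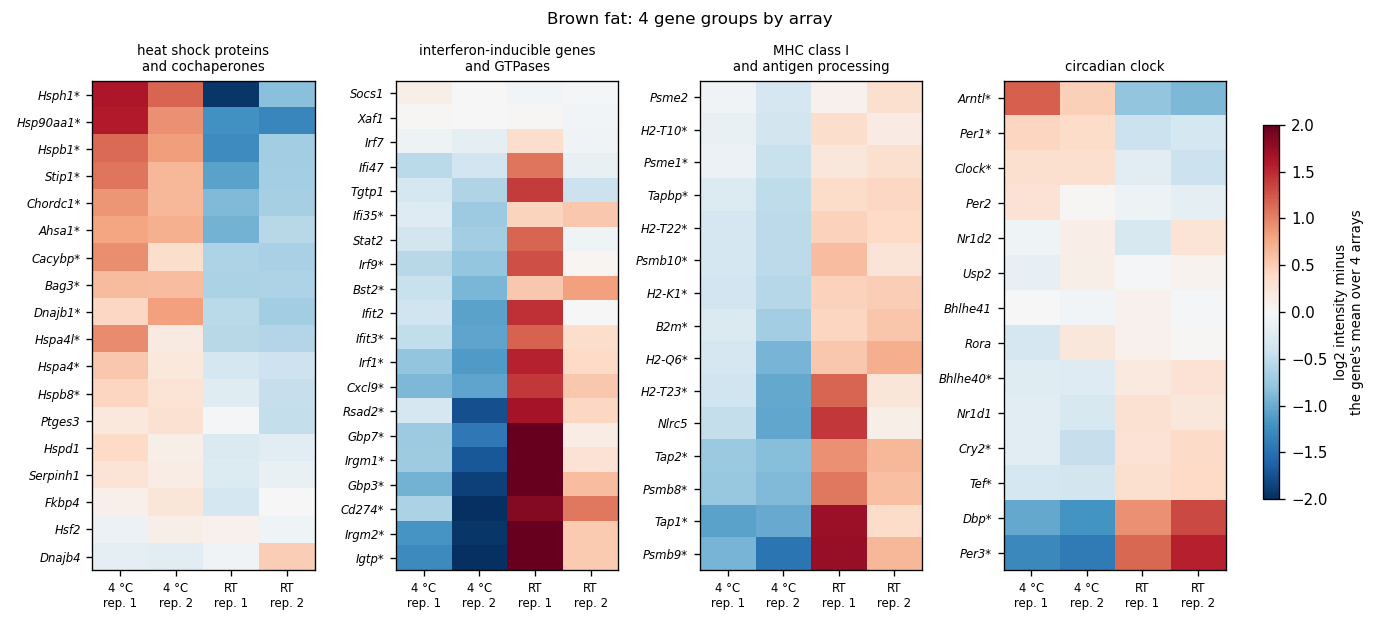
Heat map of log2 intensity minus each gene's mean over the 4 brown fat arrays, for the tested members of 4 lists, with 4 °C arrays to the left of room temperature arrays and an asterisk on genes past the threshold. The 12 heat shock genes with an asterisk are higher on both 4 °C arrays, interferon and MHC class I genes with an asterisk are lower on both 4 °C arrays, and clock genes split. Colours are cut at 2 and -2.

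Among 17 tested genes of cytokine signalling and its feedback inhibitors, 2 rose and 2 fell, shares near the 8.26% of all genes called in each direction, with a median of -0.12. Stat5a, the transcription factor used by growth hormone and prolactin, read 7.56 and 7.62 at 4 °C, against 9.82 and 10.02 at room temperature, 5.03-fold lower (log2 -2.33, SE 0.16, adjusted p = 0.00122). Cish, a feedback inhibitor in the same pathway, fell by 2.04 with a wider error (SE 0.54, adjusted p = 0.0444). The suppressors Socs2 and Socs4 rose by 2.05 and 1.54. Socs2 read 10.95 and 11.18 at 4 °C, against 9.37 and 8.66 at room temperature, with no overlap (adjusted p = 0.0105, and 0.0634 without room temperature replicate 2). Cish lost its call without room temperature replicate 1, either 4 °C array or either muscle array at room temperature (0.0565 to 0.175).

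Genes of matrix, laminin and tight junctions held the largest stable rises. Of 27 tested members of the list, 6 were higher and 4 lower, against 8.26% of all tested genes in each direction. The median was 0.21. Lamb3, a chain of the epithelial laminin, read 10.84 and 10.90 at 4 °C, against 7.10 and 6.56 at room temperature, a 16.5-fold rise (log2 4.04, SE 0.20, adjusted p = 0.00096). Cldn1, a tight junction protein, read 10.45 and 8.93 at 4 °C, against 6.03 and 6.19 at room temperature, a 12.0-fold rise (log2 3.58, SE 0.42, adjusted p = 0.00367). Both genes were clearly separated, though Cldn1 was brighter on 4 °C replicate 1 and its log2 fold change was 2.82 without it. The elastin crosslinker Loxl1 fell by 1.09, and the matrix inhibitor Timp4 rose by 0.71. Beside Lamb3 and Cldn1 no call of the list held in every leave-out, and with medians equalised 2 were higher and none lower. Without 1 brown fat array the counts ran from 2 to 4 higher and from 0, without 4 °C replicate 1, to 6 lower, without 4 °C replicate 2.

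Of 17 tested angiogenic ligands and receptors, 1 rose and 4 fell (median -0.11), against 8.26% of all tested genes in each direction. Aplnr, the receptor of the peptide apelin, read 5.83 and 5.81 at 4 °C, against 7.78 and 8.02 at room temperature (log2 -2.08, SE 0.11, adjusted p = 0.00096). Its 4 °C values lay near the lowest detected levels of those arrays, 5.46 and 5.71. The lymphatic growth factor Vegfc was not above background at 4 °C and was at least 2.17-fold lower, and the angiopoietin receptor Tek and the co-receptor Nrp1 fell by 0.91 and 0.87. In the list of endothelial markers, 1 of 16 rose, a share near that of all tested genes, and 3 fell, with a median of 0.04. Emcn and Ramp2 fell by 0.92 and 0.53, Sox17 rose by 0.74, and 12 members did not pass. Sox17 lost its call without room temperature replicate 2, 4 °C replicate 1 or either muscle array at room temperature (adjusted p from 0.0523 to 0.109), Ramp2 without either room temperature array or 4 °C replicate 1 (0.0818 to 0.0905), and Nrp1 without either room temperature array, 4 °C replicate 2 or either muscle array at room temperature (0.0586 to 0.127). With medians equalised 1 of the vascular genes and none of the endothelial markers was lower, and none of either was higher. Without 4 °C replicate 2, 3 of the angiogenic genes were higher and 3 lower. These endothelial values are given beside the vascular genes, and their part in that result was not tested.

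Markers of other cells were also read. Of 8 tested macrophage markers 3 fell and none rose (median -0.31), against 8.26% of all tested genes in each direction. Aif1, Cd14 and Fcer1g fell by 0.91, 0.71 and 0.68. Of 10 lymphocyte markers on the array 3 were tested, and none passed in limma, though all 3 had an unadjusted p under 0.05, with log2 differences from -0.63 to -0.33. The macrophage count was 1 without either room temperature array or 4 °C replicate 2, and 0 with medians equalised. These values stand beside the fall of the interferon and MHC class I genes, and their part in it was not tested. No fibroblast marker of 10 and no blood marker of 7 passed, and at an unadjusted p under 0.05 1 fibroblast marker was lower. Of 6 Schwann cell markers, Pmp22 and S100b rose by 0.71 and 0.59, against 8.26% of all tested genes, and neither held in every leave-out. Of 9 markers of all adipocytes, Cebpa alone fell, and none of 7 brown adipocyte markers passed.

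The 15 largest stable rises and falls included several genes outside these lists. The kinase Ripk4 read 9.35 and 9.63 at 4 °C, against 6.64 and 6.89 at room temperature, a 6.62-fold rise. Rbp7, a retinol-binding protein of adipose tissue and its vessels, read 10.94 and 10.84 at 4 °C, against 8.62 and 8.31 at room temperature, a 5.35-fold rise. Both were high on each 4 °C array. Tectb, known as a protein of the inner ear matrix, rose 5.07-fold, the stress-inducible actin regulator Fam107a 4.55-fold, the collagen prolyl hydroxylase P4ha1 4.51-fold and the retinol dehydrogenase Dhrs9 4.12-fold. A second Dhrs9 probe rose by 1.13 in log2. P4ha1 read 10.40 and 10.36 at 4 °C, against 7.94 and 8.47 at room temperature.

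On the falling side, Irs3, an insulin receptor substrate of mouse fat, read 6.99 and 7.91 at 4 °C, against 9.61 and 9.97 at room temperature, 5.04-fold lower. Kit, the stem cell factor receptor, read 5.64 and 5.71 at 4 °C, against 7.67 and 8.34 at room temperature, 5.02-fold lower. Kit was above background on only 1 of the 4 °C arrays, so this fold is not exact. Slc40a1, the iron exporter ferroportin, read 9.19 and 9.17 at 4 °C, against 11.27 and 11.24 at room temperature, 4.21-fold lower. The replicates of Slc40a1 nearly coincided within each group, and the groups were far apart. Klhdc7a and the retinoic acid-degrading enzyme Cyp26b1 were 4.82-fold and 4.35-fold lower, and Bahcc1 fell by 2.32 in log2. Bahcc1 read 5.86 and 5.92 at 4 °C, near the lowest detected levels of those arrays, 5.46 and 5.71. The lipoxygenase Alox12 and the channel gene Calhm6 were not above background at 4 °C, and were at least 4.74-fold and 3.82-fold lower. All 30 genes kept their call in each alternative in which they were tested. For the fits without 1 brown fat array, the rule for choosing the genes required this.

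**Figure D5:**
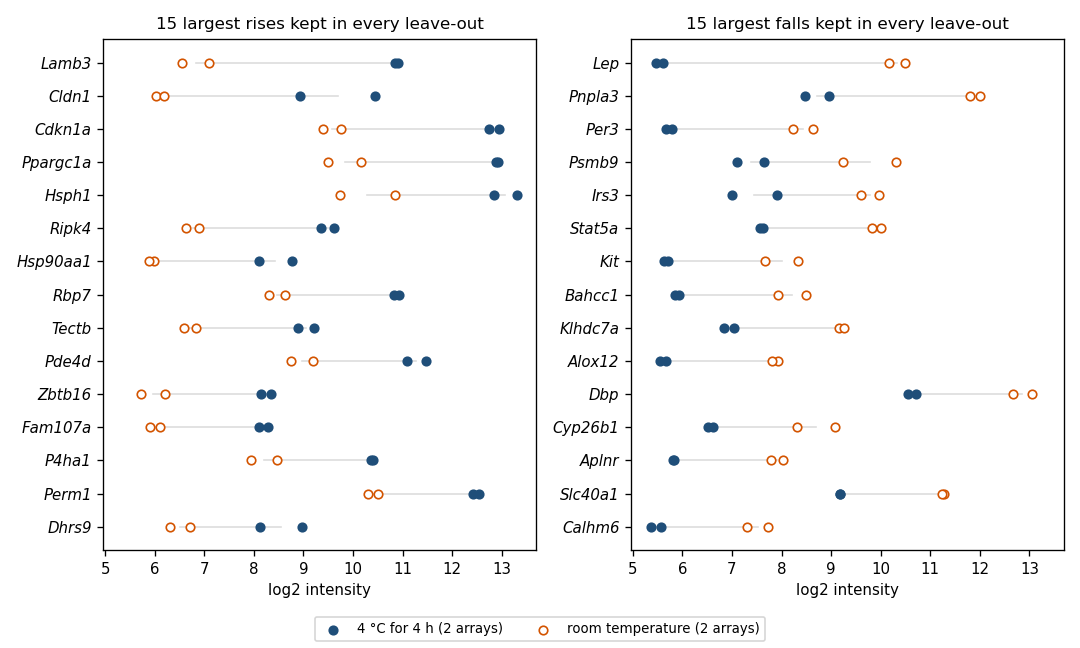
Log2 intensity on each brown fat array for the 15 largest rises (left) and the 15 largest falls (right) that passed with all arrays and without each brown fat array, with filled points for 4 °C, open points for room temperature and a grey line between group means. The groups do not overlap for any of the 30 genes, as the rule for choosing them required.

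Whether these changes differed from those in quadriceps was tested as the cold effect in brown fat minus that in muscle. Over all genes 410 (4.12%) differed, as did 24 of the 30 genes above. These genes were chosen for the size of their change in brown fat, which is 1 side of the difference tested, so nothing is read from their count. Of the 24, 14 were above background on at least 1 array of each of the 4 groups, and 8 were not above background in muscle at room temperature, where a fall could not be seen. The cold muscle array labelled replicate 2 carried brown fat transcripts such as Ucp1, and without it 16 of the 30 differed, 9 of them among those 14. Lamb3 differed by 3.76 (adjusted p = 0.00674), having read 5.55 and 5.95 in cold muscle, against 5.50 and 5.44 in muscle at room temperature. Slc40a1 differed by -2.25 (adjusted p = 0.00674), at 11.44 and 11.14 in cold muscle, against 11.07 and 11.16 in muscle at room temperature. Lamb3 was not above background on either muscle array at room temperature, so its difference rests on background there. Slc40a1 was detected on all 8 arrays, and its muscle values overlapped between the groups. Both differences passed without that muscle array (adjusted p = 0.00942 each). Cdkn1a, Rbp7, Pde4d, Zbtb16, Fam107a and Psmb9 did not pass this test. Pde4d differed by 0.33 (adjusted p = 0.512) and read 10.32 and 10.05 in cold muscle, against 8.32 and 8.09 in muscle at room temperature.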

How the data were processed

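Total RNA from brown fat and quadriceps was amplified, biotin-labelled and hybridised to Illumina bead arrays (1 colour), per the labels' protocols. The deposited table holds, per the file headers, an intensity on a linear scale for each of 24607 probes on each array, with no background subtracted as judged from its lowest values. Its deposited detection score, headed as a p-value, rises with the signal to 1 and was read as 1 minus a detection p. A second deposited table holds the authors' processed intensity values, with 32.7% to 32.9% of values below 0 and column medians of 14.91 to 15.05. It was judged from its shared minimum and maximum to be background subtracted and quantile normalized, its centring is not stated, and it served as an alternative floored at 16. The authors' software and methods were not given in the sources used here.

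In R 4.3.3 with limma 3.58.1, intensities were corrected with normexp, using negative controls inferred from the detection p, given an offset of 16, quantile normalized over 8 arrays and put on the log2 scale. Probes were tested if both arrays of any group had a detection p under 0.05. Symbols were taken from the platform's annotation (20980 probes with 1 symbol, 1 with several and 3626 with none). A model of 4 group means was fitted with lmFit and eBayes (4 residual degrees of freedom, 3.1 added by moderation), and the contrast was 4 °C minus room temperature in brown fat, with Benjamini-Hochberg adjustment over 9963 genes. Errors are SE of the log2 fold change. On simulated data with 100 changed genes at each size, this fit recovered 78% of genes changed by 1 in log2 and 91% of those changed by 2. Of its calls 4.52% were false. The simulated noise was independent between genes, with the same spread in all groups. It holds no shift of many genes on 1 array, such as that of the muscle transcripts, so the false share of the real calls is not known from it. Precision is limited by having 2 arrays a group, and an exact permutation test of 2 against 2 cannot give a p below 0.333, so none is reported.

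The genes named are the 15 largest rises and 15 largest falls among genes with a symbol that passed with all arrays and without each of the 4 brown fat arrays, did not overlap between groups and were above background on both arrays of the group where they were brighter. Zbtb16 and up to 6 called members of each of 31 lists, or up to 2 where none passed, were also named. The comparison, the lists and these rules were chosen with earlier results of these data known, and some genes stand on several lists. Promoter windows are RefSeq sequences (GRCm38.p6) matched by symbol, and 6972 of 8561 named tested genes had one. Alternatives covered scaling, background, filters, probe choice, the arrays in the fit and a replicate block.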

Additional observations from a re-analysis of the deposited data

Results flagged for a closer look

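For 24 of the 30 most changed genes the effect of cold in brown fat differed from that in quadriceps, by the interaction of the same limma fit (adjusted p under 0.05 over 9963 genes). The 30 genes were chosen for the size of their change in brown fat, 1 side of this difference, so their count is not set against that of other genes. Values are the log2 fold change in brown fat minus that in muscle. Among genes that rose in brown fat, the difference was 4.46 for Cldn1, 3.76 for Lamb3, 2.39 for Hsph1, 2.35 for Ppargc1a, 2.19 for Tectb, 2.18 for Perm1, 2.10 for P4ha1, 2.00 for Ripk4, 1.90 for Dhrs9 and 1.81 for Hsp90aa1. Among genes that fell, it was -4.01 for Pnpla3, -3.53 for Lep, -2.52 for Klhdc7a, -2.40 for Irs3, -2.25 for Slc40a1, -2.23 for Kit, -2.10 for Calhm6 and -2.05 for Cyp26b1. It was -1.94 for Stat5a, -1.63 for Alox12, -1.45 for Per3, -1.39 for Bahcc1, -1.17 for Dbp and -0.89 for Aplnr. Of the 24, 10 were not above background in at least 1 of the 4 groups, so that their differences rest in part on background and are not exact. Lep, Alox12 and Calhm6 were not above background in brown fat at 4 °C. Lamb3, Ripk4, Hsp90aa1, Tectb, Dhrs9, Irs3, Klhdc7a and Calhm6 were not above background in muscle at room temperature, where a fall could not be seen. The cold muscle array labelled replicate 2 carried brown fat transcripts (Ucp1 read 14.45 there and 9.15 on the other cold muscle array), and without it 16 of the 30 genes passed. The part of those transcripts in the differences was not tested.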

How the results depend on the processing

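The counts of 823 higher and 823 lower genes depended on the arrays and on scaling. With brown fat arrays alone 504 were higher and 547 lower of 9181 genes, with median scaling 58 and 194, and with cyclic loess 427 were higher and 575 lower. The cause of the drop under these scalings was not tested. Leaving out 1 array gave 259 to 858 higher and 341 to 903 lower genes, with 381 and 367 without room temperature replicate 1, 259 and 341 without room temperature replicate 2, 348 and 419 without 4 °C replicate 1, and 539 and 546 to 547 without either muscle array at room temperature. The counts stayed within 1.5 times under the other background, filter, probe and prior settings, from 710 to 895 higher and 738 to 867 lower. Counts of single lists moved more. With cyclic loess 6 glucocorticoid genes, 1 glucose gene, 2 matrix genes and 3 ubiquitin and FoxO genes were higher, and the thermogenic list had 1 higher gene with cyclic loess, the authors' processed table or trend and robust moderation. The labels share only a replicate number between groups, and same-numbered arrays had deviations correlated at 0.18, or 0.09 without muscle-bright genes. With a replicate block, 849 genes were higher and 846 lower, and 2 named genes lost their call. Of 126 named genes, 111 passed and 43 did so in every alternative in which they were tested. These 43 include the 30 that were chosen in part for holding without each brown fat array. Over 2758 pairs of named gene and alternative, 349 lost a call, 29 gained one and none changed direction while called. Of 681 pairs of list and alternative, the median moved by more than its spread in 46. Genes not above background in a group, 97 of the lower and 39 of the higher calls, have only a bound on their fold.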

Other observations

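Genes next in size to the 30 described, chosen after their values were seen, gave further values for amino acid transport and adipose signalling. Slc3a2, the heavy chain shared by amino acid exchangers, read 7.37 and 8.03 at 4 °C, against 5.92 and 5.41 at room temperature (log2 2.04, SE 0.30, adjusted p = 0.00684), and the amino acid transporter gene Slc7a6 and the phosphate transporter gene Slc20a1 rose by 1.66 and 1.72, Slc7a6 losing its call with medians equalised. The 4 °C values of all 3 lay above those at room temperature. Ttpa, the vitamin E transfer protein, was not above background at room temperature and was at least 3.45-fold higher at 4 °C. Arc, an activity-regulated gene of neurons, read 7.78 and 7.03 at 4 °C, against 5.51 and 5.67 at room temperature, and rose by 1.82. Slc3a2 and Arc were each above background on only 1 room temperature array, so the sizes of their rises are not exact. Upp1, which breaks down uridine, rose by 1.66.

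Among further falls, Igfals, the serum carrier of insulin-like growth factors, read 7.28 and 7.49 at 4 °C, against 9.82 and 9.05 at room temperature (log2 -2.05, SE 0.26, adjusted p = 0.00443). Adenylyl cyclase 9 (Adcy9), which makes cyclic AMP, read 7.54 and 7.47 at 4 °C, against 9.32 and 9.23 at room temperature, a fall of 1.77 (SE 0.11, adjusted p = 0.00115). Both were separated, and the replicates of Adcy9 were close. Wnt5a fell by 1.73, the lipogenic regulator Mid1ip1 by 1.69, Ampd2 by 1.80 and the lipid receptor S1pr5 by 1.89. Ampd2 was above background on only 1 of the 4 °C arrays, so the size of its fall is not exact. Steap4, a metalloreductase of fat, fell by 1.66 on its brightest probe, while its other probe differed by -0.44 (adjusted p = 0.0681).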
